A study of Mus musculus with 6 samples.

Results

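Interferon-stimulated genes are the genes that cells switch on when an interferon reaches its receptor, and 29 of them were followed here in mouse liver: Irf7, Irf1, Stat2, Ifih1, Ddx58, Zbp1, Ifit1, Ifit2, Ifit3, Oas1a, Oas2, Oas3, Oasl1, Oasl2, Mx1, Mx2, Isg15, Usp18, Rsad2, Cmpk2, Ifi44, Ifi27l2a, Rtp4, Xaf1, Gbp2, Gbp3, Iigp1, Igtp and Irgm1. They are matched by gene name, were chosen with earlier results of these data known, and make up 29 of the 43346 genes in the deposited count table. All 29 were found there, and all 29 were among the 19352 genes with enough reads to be tested. The libraries came from whole liver of Mus musculus and were stranded, rRNA-depleted total RNA. Livers of one group had received an AAV8 construct for silencing S100a11 by shRNA (genotype labelled knockdown (KO), libraries 2, 3 and 2600), and those of the other a scrambled shRNA (genotype labelled control, libraries 28, 30 and 31), with 3 libraries in each group. Every liver came from the FFC diet, the study's dietary model of metabolic dysfunction-associated steatohepatitis (MASH), so no library came from a liver without the diet or without an shRNA. AAV8 is a viral vector that reaches mainly hepatocytes, whereas interferon-stimulated genes can be expressed by hepatocytes, macrophages, endothelial cells and lymphocytes. The labels give no age, sex or strain, and do not say whether each library was a separate animal, so the p-values measure the spread between these libraries, which may be partly technical.

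Type I interferons, made when sensors such as RIG-I, MDA5 or cGAS meet nucleic acid in the wrong place, act through the receptor chains Ifnar1 and Ifnar2, the kinases Jak1 and Tyk2, and a complex that includes Stat2 and Irf9. That complex binds the interferon-stimulated response element (ISRE), a repeat of the letters GAAA, and turns on antiviral effectors such as Isg15, the IFIT proteins, the OAS enzymes and the MX GTPases. Interferon-gamma, made by T cells and NK cells, acts through a different receptor and on a different DNA element, GAS, and it is the stronger inducer of Irf1 and of the guanylate-binding and immunity-related GTPases.

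The sequences just upstream of the members were searched for letters like those of both elements. Of the 29 members, 21 had an entry in the RefSeq promoter table (build GRCm38.p6, the same assembly as mm10), and the entries gave 24 windows of 250 bases before an annotated start. Zbp1, Oas2, Mx1, Mx2, Usp18, Ifi27l2a, Rtp4 and Iigp1 had none. The ISRE-like letters, GAAANN directly followed by GAAA (N for any base), on either strand and with overlapping matches counted, stood in the windows of 11 of the 21 members (52.4%), against 3.46% of the 27025 genes in the table. The GAS-like letters TTCNNNGAA stood in 4 of the 21 (19.0%), against 8.13% of all genes. These were Oas1a, Irf1, Igtp and Ifit2, whereas Gbp2, Gbp3 and Irgm1 carried only ISRE-like matches. The matches thus did not divide the members by type of interferon. The last 120 bases before the start are printed for 6 members, 5 of which carry the motif and come from 4 effector families, while the other, Irf7, had the smallest p-value of the members and carries no match. Each runs 5′ to 3′ on the gene's own strand, and capitals mark the bases covered by an ISRE-like match on either strand.
Isg15, chr4:156200819-156200938, minus strand: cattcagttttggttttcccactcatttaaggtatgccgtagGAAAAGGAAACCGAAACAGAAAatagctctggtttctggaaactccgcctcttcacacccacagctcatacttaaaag
Ifit1, chr19:34640769-34640888, plus strand: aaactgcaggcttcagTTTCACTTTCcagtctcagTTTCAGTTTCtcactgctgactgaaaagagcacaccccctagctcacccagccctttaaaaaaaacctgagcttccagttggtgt
Irgm1, chr11:48871421-48871540, minus strand: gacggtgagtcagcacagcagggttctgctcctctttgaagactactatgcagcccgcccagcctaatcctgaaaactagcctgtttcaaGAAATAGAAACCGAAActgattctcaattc
Gbp3, chr3:142559924-142560043, plus strand: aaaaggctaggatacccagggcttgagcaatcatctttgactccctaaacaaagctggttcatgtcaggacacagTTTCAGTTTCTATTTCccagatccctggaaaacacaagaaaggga
Igtp, chr11:58199436-58199555, plus strand: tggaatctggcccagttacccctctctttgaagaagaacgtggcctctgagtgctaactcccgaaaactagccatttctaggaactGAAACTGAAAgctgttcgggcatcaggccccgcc
Irf7, chr7:141266425-141266544, minus strand: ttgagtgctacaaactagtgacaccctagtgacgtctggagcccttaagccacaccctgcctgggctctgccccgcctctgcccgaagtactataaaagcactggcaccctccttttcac
Isg15 held 3 overlapping matches, the nearest beginning 66 bases before the start, and Ifit1, Irgm1 and Gbp3 held 2 each. The matches of Irgm1 and Gbp3 ran into one another, so the 2 repeats share their middle letters. Igtp held 1 ISRE-like match beginning 34 bases before the start and a GAS-like match, TTCTAGGAA, beginning 45 bases before it. In Gbp3 and Ifit1 the letters read TTTC because the match lies on the other strand. A match is a description of letters and not a measured binding site, and the absence of one in Irf7 says only that these letters are not in this window. Of the 11 members with an ISRE-like match 1 passed the test described next, with a median log2 change of 0.25, and of the 10 without one 1 passed, with a median of -0.04. The other member that passed, Mx1, was not in the promoter table.

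Depth was high for these genes and 1 library did not behave as labelled. Libraries held 53517387 to 78091845 counts, and the members had between 231 and 21412 counts in a library. Levels are given as CPM, the counts relative to a library size scaled by the trimmed mean of M values (TMM), and per-length levels are the same CPM per kilobase of the length column in the table (RPKM). The targeted gene S100a11 measured 16.0, 3.55 and 3.41 CPM in libraries 2, 3 and 2600 labelled S100a11 shRNA, and 15.9, 22.9 and 30.0 CPM in the scrambled libraries 28, 30 and 31. The library labelled S100a11 shRNA 2 thus overlapped the scrambled libraries, and the fitted log2 change of -1.57 ± 0.56 (SE) was not called (edgeR adjusted p = 0.095, exact two-sided permutation p = 0.2, the smallest possible with these groups being 0.1). For that reason results are given with and without the library labelled 2. TMM factors were 0.822 to 0.932 in the S100a11 shRNA libraries and 1.10 to 1.19 in the scrambled libraries, and the RNA Gm26917 took 10.8% of the counts in library 2600, against 3.16% to 6.44% in the other 5. With edgeR's quasi-likelihood test and a Benjamini-Hochberg adjusted p under 0.05 over all tested genes, 14.1% of the tested genes differed between the groups, 5.82% higher and 8.28% lower in S100a11 shRNA livers. That is 1126 genes higher and 1602 lower with TMM, against 397 higher and 3970 lower when libraries were scaled by their totals alone, a scaling that put the median log2 change of all tested genes at -0.32, against 0.04 with TMM.

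Few of the interferon-stimulated genes passed the test. In S100a11 shRNA livers Irf7 and Gbp3 were higher, Mx1 was lower, and the other 26 did not pass the edgeR threshold. The 3 called members are 10.3% of the 29, set beside the 14.1% of all tested genes. With library totals alone 0 members were higher and 3 lower (Irf1, Mx1 and Oasl2), beside the shift of all genes. At an adjusted p under 0.1 Igtp joined them, making 4 members, where 21.7% of all tested genes passed. Fitted log2 changes ran from -0.59 to 0.89, with 17 above 0 and 12 below, and their median was 0.10, set beside 0.04 for all tested genes. The groups did not overlap in 3 of the 29 members (10.3%), against 34.7% of all tested genes. For 24 of the 29 members the 95% interval of the change lay wholly within 1 on the log2 scale in either direction, so a 2-fold difference lay outside it, and 21 of these 24 were members that were not called. The interval reached further for Ifit1, Usp18, Ifi27l2a, Iigp1 and Igtp. In whole liver, fewer cells of a type and less RNA per cell cannot be told apart.

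**Figure D1:**
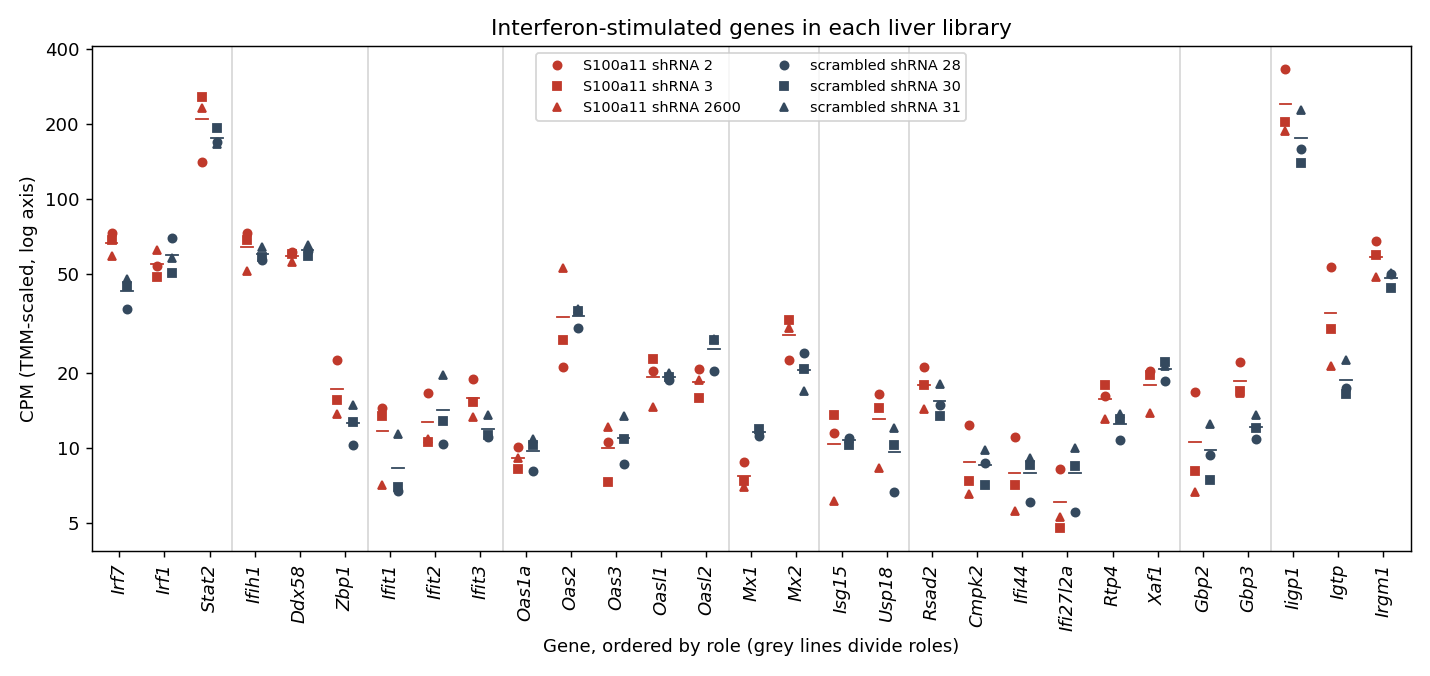
CPM of each of the 29 interferon-stimulated genes (log axis) in the 3 S100a11 shRNA libraries (red, left of each gene) and the 3 scrambled shRNA libraries (dark, right), with short lines at the group means and grey lines between roles. The red and dark points are apart for Irf7, Gbp3 and Mx1 and overlap for the other 26 genes.

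**Figure D2:**
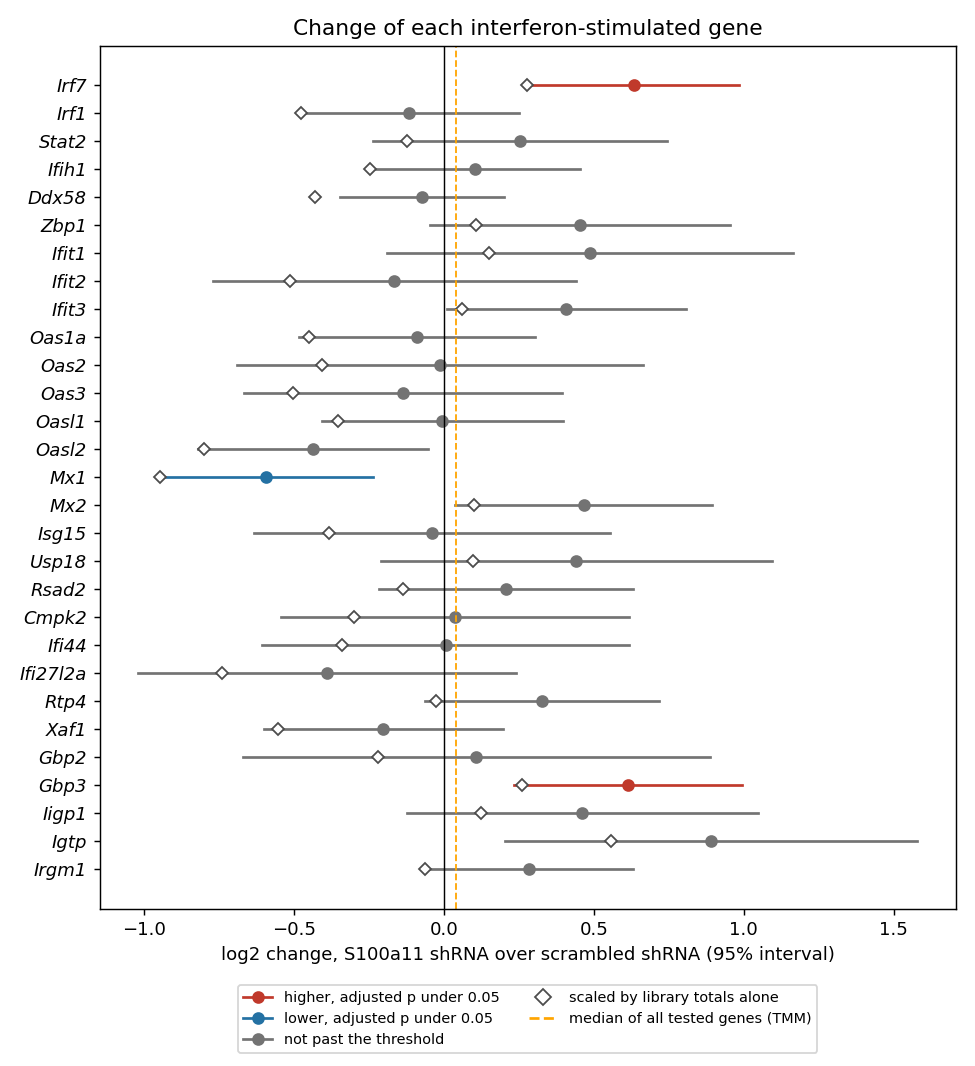
Fitted log2 change of each member, S100a11 shRNA over scrambled shRNA, with its 95% interval, and open diamonds for the same change when libraries are scaled by their totals alone. The changes run from -0.59 for Mx1 to 0.89 for Igtp, and the diamonds lie to the left of the TMM values in every case.

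Per base of transcript, the most abundant members were not the classical antiviral effectors but the GTPase Iigp1 and the signalling factor Stat2. Iigp1 averaged 77.1 RPKM in S100a11 shRNA livers and 55.9 RPKM in scrambled livers. Stat2 followed with 47.6 RPKM in S100a11 shRNA livers and 40.0 RPKM in scrambled livers. Ordered by the mean of both groups, Irf7 was next, with 22.0 RPKM in S100a11 shRNA livers and 14.2 RPKM in scrambled livers. In scrambled livers alone Ifi27l2a (17.2 RPKM) and Irf1 (14.9 RPKM) stood above Irf7. Ifi27l2a, Irf1, Isg15, Igtp and Irgm1 came next, with group means of 10.04 to 17.2 RPKM in S100a11 shRNA livers and 8.25 to 17.2 RPKM in scrambled livers. In scrambled livers Isg15 (14.2 ± 0.47 RPKM) stood above Igtp (9.27 ± 1.6 RPKM) by more than their SDs (n = 3), whereas in S100a11 shRNA livers (13.7 ± 5.1 RPKM for Isg15 and 17.2 ± 8.1 RPKM for Igtp) the SDs overlapped. The lowest were Ifi44, at 1.29 RPKM in both groups, and Oas3, at 1.91 RPKM in S100a11 shRNA livers and 2.09 RPKM in scrambled livers.

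Among the 3 transcription factors, Irf7 was higher in S100a11 shRNA livers, and Stat2 and Irf1 did not pass. Irf7 is the factor that amplifies type I interferon production once a first wave has been sensed, and it is itself interferon-induced. It measured 72.8, 67.9 and 58.6 CPM in S100a11 shRNA libraries 2, 3 and 2600, and 35.9, 44.7 and 47.7 CPM in scrambled libraries 28, 30 and 31. Every S100a11 shRNA library stood above every scrambled one. S100a11 shRNA livers averaged 66.4 ± 7.21 CPM and scrambled livers 42.8 ± 6.14 CPM (SD, n = 3 each), a 1.55-fold difference with a log2 change of 0.64 ± 0.15 (SE, 95% interval 0.29 to 0.98, edgeR adjusted p = 0.029). Without the library labelled 2 the log2 change was 0.53 (edgeR adjusted p = 0.032). The call was lost without library 3 (0.087), 28 (0.10), 30 (0.098) or 31 (0.057), these being edgeR adjusted p-values, and when libraries were scaled by their totals alone the log2 change was 0.28 (edgeR adjusted p = 0.28). The gene lies on chromosome 7, bases 141262706 to 141266481 of mm10, minus strand, and 45 of its exonic bases are shared with Phrf1 on the opposite strand. Phrf1 had 3745 to 5675 counts in the libraries, and no source used here says whether the counting used strand, so reads from those 45 bases cannot be assigned with certainty.

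Stat2, the partner of Irf9 in the type I complex, measured 140, 256 and 232 CPM in S100a11 shRNA libraries 2, 3 and 2600, and 169, 191 and 166 CPM in scrambled libraries 28, 30 and 31. Libraries 3 and 2600 stood above all 3 scrambled libraries and the library labelled 2 stood below all of them. With all libraries the log2 change was 0.25 ± 0.22 (SE, edgeR adjusted p = 0.48), and without the library labelled 2 it was 0.44 and passed (edgeR adjusted p = 0.048). Irf1, a factor that interferon-gamma induces quickly, measured 53.6, 48.6 and 62.1 CPM in S100a11 shRNA libraries, and 69.5, 50.3 and 58.0 CPM in scrambled libraries. These ranges overlapped, and the log2 change was -0.11 ± 0.16 (SE, edgeR adjusted p = 0.68).

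None of the 3 sensors passed the test. Ifih1 (MDA5) and Ddx58 (RIG-I), cytosolic receptors for viral RNA, were among the steadiest members. Ddx58 measured 55.7 to 61.2 CPM in S100a11 shRNA libraries and 58.8 to 65.4 CPM in scrambled libraries, and the 95% interval of its log2 change ran from -0.35 to 0.20. Ifih1 measured 51.5 to 72.6 CPM in S100a11 shRNA libraries and 56.6 to 63.9 CPM in scrambled libraries, with a log2 change of 0.10 ± 0.16 (SE). Zbp1, a sensor of Z-form nucleic acid that can start necroptosis, measured 13.6 to 22.5 CPM in S100a11 shRNA libraries and 10.3 to 14.8 CPM in scrambled libraries, overlapping, with a log2 change of 0.45 ± 0.22 (SE, edgeR adjusted p = 0.21).

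The IFIT genes, whose proteins bind foreign RNA and block its translation, gave 0 calls in 3. Ifit1 measured 7.12 to 14.5 CPM in S100a11 shRNA libraries and 6.72 to 11.3 CPM in scrambled libraries, with a log2 change of 0.49 ± 0.30 (SE) whose 95% interval, -0.19 to 1.17, did not exclude a 2-fold rise. Ifit3 measured 13.3 to 18.9 CPM in S100a11 shRNA libraries and 11.03 to 13.6 CPM in scrambled libraries, the ranges just overlapping, with a log2 change of 0.41 (edgeR adjusted p = 0.16). Ifit2 pointed the other way, at -0.17 ± 0.27 (SE). Ifit3 shares 51.2% of its 50-base transcript windows with its copy Ifit3b, so its reads may be divided between both.

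The OAS family makes the second messenger that activates RNase L (Oas1a, Oas2, Oas3, Oasl2) or lacks that activity and binds RNA (Oasl1). Of its 5 members 0 passed. With all libraries the fitted log2 changes ran from -0.44 to 0.00, and those of Oas2, Oas3 and Oasl1 changed sign when single libraries were left out. Oas2 spread widely within the S100a11 shRNA group, with 21.1 CPM in the library labelled 2, 27.0 in library 3 and 52.8 in library 2600, against 30.3, 35.3 and 36.0 CPM in scrambled libraries 28, 30 and 31. The S100a11 shRNA libraries thus lay on both sides of the scrambled ones, and the log2 change was -0.01 (edgeR adjusted p = 0.98). Oasl2 measured 15.9 to 20.6 CPM in S100a11 shRNA libraries and 20.3 to 27.3 CPM in scrambled libraries. Its log2 change of -0.44 ± 0.17 (SE) did not pass with all libraries (edgeR adjusted p = 0.12) and passed without the library labelled 2, at -0.56 (edgeR adjusted p = 0.047). Oas1a, Oas3 and Oasl1 had log2 changes of -0.09, -0.14 and 0.00, and Oas1a shares 57.6% of its windows with Oas1g.

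Of the MX pair 1 passed. Mx1 encodes a nuclear GTPase that blocks influenza replication in mice that carry a working allele, and it was the only member that was lower. It measured 8.75, 7.37 and 6.94 CPM in S100a11 shRNA libraries 2, 3 and 2600, and 11.2, 11.9 and 11.8 CPM in scrambled libraries 28, 30 and 31. No S100a11 shRNA library reached the lowest scrambled one. S100a11 shRNA livers averaged 7.69 ± 0.949 CPM and scrambled livers 11.6 ± 0.382 CPM (SD, n = 3 each), 1.51-fold lower in S100a11 shRNA livers, with a log2 change of -0.59 ± 0.16 (SE, edgeR adjusted p = 0.039). Without the library labelled 2 it was -0.73 (edgeR adjusted p = 0.012), and it did not pass without any one of the other 5 libraries (edgeR adjusted p = 0.083 to 0.15). Mx1 lies on chromosome 16, bases 97447035 to 97462907 of mm10, minus strand. Its neighbour Mx2, annotated as a polymorphic pseudogene, measured 22.4, 32.6 and 30.2 CPM in S100a11 shRNA libraries and 24.1, 20.7 and 17.0 CPM in scrambled libraries. The library labelled 2 overlapped the scrambled range and the other pair stood above it. The log2 change of Mx2 was 0.47 ± 0.19 (SE, edgeR adjusted p = 0.14), and 0.58 without the library labelled 2 (edgeR adjusted p = 0.040). Of the transcript windows of Mx2, 4.38% are shared with Mx1.

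Isg15, a ubiquitin-like modifier that is attached to other proteins, and Usp18, the protease that removes it and damps the type I receptor, did not pass. Isg15 measured 11.5, 13.6 and 6.09 CPM in S100a11 shRNA libraries 2, 3 and 2600, and 10.97, 10.3 and 10.8 CPM in scrambled libraries 28, 30 and 31. Library 2600 stood below all others and libraries 2 and 3 above them, while the scrambled libraries had an SD of 0.353 CPM. Its log2 change was -0.04, with a 95% interval of -0.63 to 0.55 (edgeR adjusted p = 0.94). Usp18 measured 8.30 to 16.4 CPM in S100a11 shRNA libraries and 6.66 to 12.0 CPM in scrambled libraries, with a log2 change of 0.44 and an interval reaching 1.09.

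The 6 remaining effectors also gave 0 calls. Rsad2 (viperin), which makes a chain-terminating nucleotide, and Cmpk2, the mitochondrial kinase encoded beside it on chromosome 12, had log2 changes of 0.21 and 0.04. Ifi44 stood at 0.01, Rtp4 at 0.33 and Xaf1, a partner of the apoptosis inhibitor XIAP, at -0.20. Ifi27l2a, a small interferon-induced membrane protein, measured 8.19, 4.76 and 5.25 CPM in S100a11 shRNA libraries 2, 3 and 2600, and 5.50, 8.43 and 9.94 CPM in scrambled libraries 28, 30 and 31. The ranges overlapped, and its log2 change was -0.39 with an interval of -1.02 to 0.24.

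The 5 GTPases that interferon-gamma induces most strongly had fitted changes above 0 with all libraries and TMM, and 1 of the 5 passed. Scaled by library totals alone, Gbp2 stood at -0.22 and Irgm1 at -0.064, and Gbp2 also stood at -0.44 without the library labelled 2 and at -0.056 without library 30. Gbp3, a guanylate-binding protein that helps attack vacuoles holding intracellular pathogens, measured 22.0, 16.9 and 16.6 CPM in S100a11 shRNA libraries 2, 3 and 2600, and 10.8, 12.0 and 13.5 CPM in scrambled libraries 28, 30 and 31. All S100a11 shRNA libraries stood above all scrambled ones. S100a11 shRNA livers averaged 18.5 ± 3.02 CPM and scrambled livers 12.1 ± 1.33 CPM (SD, n = 3 each), 1.53-fold, with a log2 change of 0.61 ± 0.17 (SE, edgeR adjusted p = 0.043). Without the library labelled 2 the log2 change was 0.44 (edgeR adjusted p = 0.065), and no fit that left out 1 library kept the call (edgeR adjusted p = 0.054 to 0.16). With library totals alone it was 0.26 (edgeR adjusted p = 0.35). Gbp3 lies on chromosome 3, bases 142560052 to 142573209 of mm10, plus strand, within the span that the table gives to a neighbouring guanylate-binding gene, and it shares 3.75% of its transcript windows with Gbp7. Gbp2, its neighbour in the same cluster, measured 6.64 to 16.8 CPM in S100a11 shRNA libraries and 7.40 to 12.5 CPM in scrambled libraries, with a log2 change of 0.11.

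The 3 immunity-related GTPases, which gather on pathogen vacuoles (Iigp1) or regulate their relatives (Igtp, Irgm1), gave 0 calls. Iigp1, the most abundant member, measured 332, 204 and 186 CPM in S100a11 shRNA libraries 2, 3 and 2600, and 159, 138 and 227 CPM in scrambled libraries 28, 30 and 31. The library labelled 2 was far above the rest, and scrambled library 31 stood above libraries 3 and 2600. The log2 change was 0.46 ± 0.26 (SE, edgeR adjusted p = 0.27) and 0.13 without the library labelled 2. Igtp had the largest fitted change of the members, with 53.1, 29.9 and 21.2 CPM in S100a11 shRNA libraries 2, 3 and 2600, and 17.3, 16.5 and 22.5 CPM in scrambled libraries 28, 30 and 31. Library 2600 fell within the scrambled range. Its log2 change was 0.89 ± 0.30 (SE, 95% interval 0.20 to 1.58, edgeR adjusted p = 0.086), 0.42 without the library labelled 2 (edgeR adjusted p = 0.14) and 1.14 without library 2600 (edgeR adjusted p = 0.033). DESeq2 called it, with an adjusted p of 0.030, and over the other alternatives the adjusted p ran up to 0.25. Igtp lies on chromosome 11, bases 58199556 to 58207591 of mm10, plus strand, and shares 11.8% of its windows and 162 exonic bases with Irgm2, so reads may be divided between them. Irgm1 measured 67.4, 59.2 and 48.4 CPM in S100a11 shRNA libraries and 50.04, 43.7 and 50.1 CPM in scrambled libraries, overlapping through library 2600, with a log2 change of 0.28 ± 0.15 (SE, edgeR adjusted p = 0.25).

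Within each group, the same libraries tended to be high or low across the members. The library labelled 2 was the highest of the S100a11 shRNA libraries for 21 of the 29 members (72.4%), against 37.8% of all tested genes, and library 2600 was the lowest for 20 (69.0%), against 35.0%. Among scrambled libraries, library 31 was the highest for 23 members (79.3%), against 41.1% of all tested genes, and library 28 the lowest for 18 (62.1%), against 34.2%. This was not particular to the members. Library 31 was also highest for 64.3% of hepatocyte, 65% of macrophage and 69.2% of dendritic cell markers. The library labelled 2 was highest of its group for 60% of macrophage and 68.4% of T and NK cell markers, whereas library 2600 was for 90% of endothelial markers. The median member stood at 0.28, 0.21 and -0.11 in S100a11 shRNA libraries 2, 3 and 2600, and at -0.14, -0.02 and 0.16 in scrambled libraries 28, 30 and 31, on the scale of log2 CPM over the scrambled mean. Both groups therefore held libraries with higher and lower member levels, and the group ranges overlapped. Members share their library, so these counts describe 6 libraries and not 29 independent observations. The summed level of the immunity-related GTPases was highest in the same library of each group, with 452, 293 and 256 CPM in S100a11 shRNA libraries 2, 3 and 2600, and 226, 199 and 299 CPM in scrambled libraries 28, 30 and 31. Without the library labelled 2 the median log2 change of the members was -0.03, against -0.02 for all genes tested in that fit. In that fit 5 of the 29 members passed, namely Irf7, Stat2, Mx2, Mx1 and Oasl2. Calls rose over the whole table too, to 4176 of 19779 tested genes, against 2728 of 19352 with all libraries. No member passed without library 3, 28, 30 or 31, and Irf7 and Igtp passed without library 2600.

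**Figure D3:**
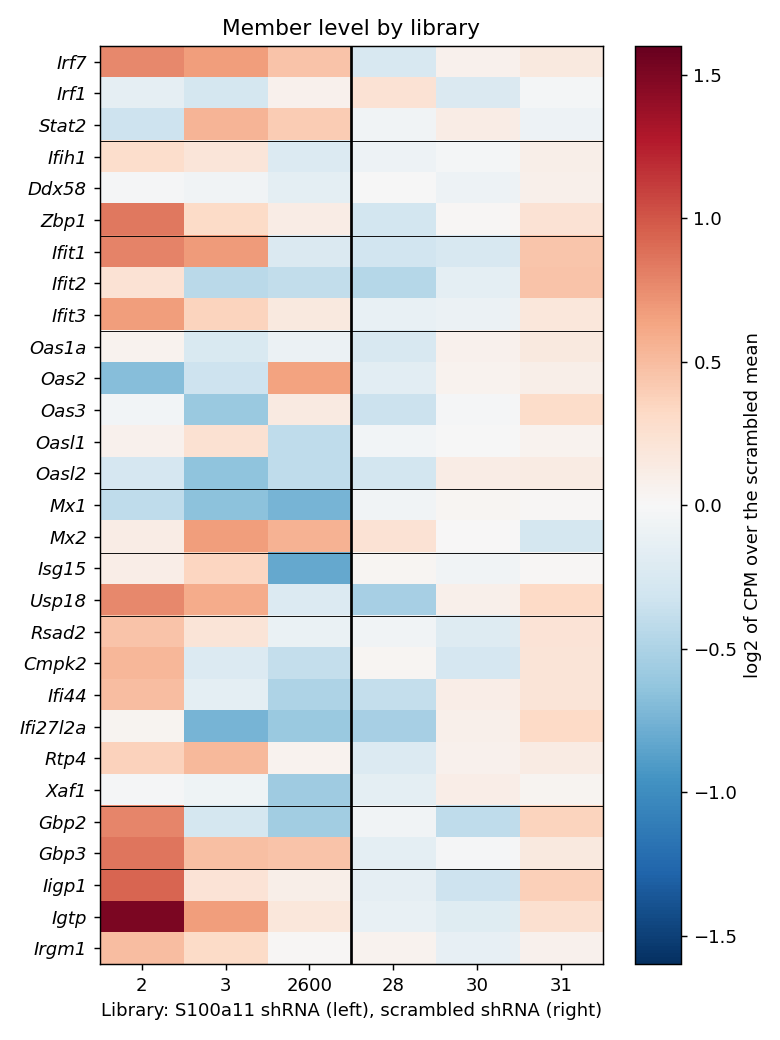
Level of each member in each library as the log2 of its CPM over the scrambled mean, red above and blue below, S100a11 shRNA libraries left of the black line and scrambled libraries right of it. The columns of library 2 (median 0.28) and library 31 (median 0.16) are redder than those of libraries 2600 (-0.11) and 28 (-0.14), across both groups.

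Interferon transcripts themselves were at the limit of detection. Among 21 interferon genes none (0) had enough reads to be tested, and 13 had no count in any library, among them Ifnb1, Ifnl2, Ifnl3 and Ifna1. Over all interferon genes the S100a11 shRNA libraries held 16 counts together, and the scrambled libraries 26. Ifng had 2, 4 and 3 counts in S100a11 shRNA libraries 2, 3 and 2600, and 0, 8 and 8 counts in scrambled libraries 28, 30 and 31. The groups overlapped, and no difference in Ifng was detectable at this depth. A count of 0 allows up to 3 counts in a library, which is 0.0346 to 0.0682 CPM, and this limit covers counting error only.

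Upstream of the responding genes, the list of receptors, kinases and inhibitors held a share of calls near that of all tested genes. The 3 genes called were all receptor chains, and no kinase or inhibitor of the list passed. Of the 16 genes of this list 3 were lower and 0 higher (18.8% called, beside 14.1% of all tested genes, median log2 change -0.13). With library totals alone 8 were lower and 0 higher, where 3970 of all 19352 tested genes were lower. The list also holds the nucleases Isg20 and Trex1. Isg20 is among the further type I targets too, so its call with library totals alone is counted in both lists. Ifnlr1, the specific chain of the lambda interferon receptor, measured 0.991, 0.320 and 0.546 CPM in S100a11 shRNA libraries 2, 3 and 2600, and 1.84, 4.51 and 2.62 CPM in scrambled libraries 28, 30 and 31. The groups did not overlap, and the level was 4.77-fold lower in S100a11 shRNA livers (log2 change -2.25 ± 0.46, SE, edgeR adjusted p = 0.016). Il10rb, the chain it shares with the interleukin-10 receptor, was 1.76-fold lower (edgeR adjusted p = 0.016), and Ifngr1, the binding chain for interferon-gamma, 1.58-fold lower (edgeR adjusted p = 0.039). Il10rb shares 13.6% of its windows with an overlapping transcript model, Gm21970. Between 0 and 4 of these genes passed when each library was left out in turn, with 4 without the library labelled 2, 0 without library 3 or 30 and 1, Ifnlr1, without library 31.

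Of 12 other transcription factors of the pathway 4 were lower and 1 higher (41.7% called, beside 14.1% of all tested genes, median 0.08). With library totals alone 5 were lower and 0 higher, where 3970 of all 19352 tested genes were lower. With that scaling Irf9 did not pass and Batf2 did. Ciita, the master regulator of MHC class II genes, measured 21.1, 17.0 and 18.8 CPM in S100a11 shRNA libraries 2, 3 and 2600, and 33.3, 35.6 and 35.8 CPM in scrambled libraries 28, 30 and 31. It was 1.84-fold lower (log2 change -0.88 ± 0.14, SE, edgeR adjusted p = 0.0068) and passed in each of the 6 fits that left out 1 library. Irf4, Irf5 and Irf8, factors of lymphoid and myeloid cells, were 2.13-fold, 1.59-fold and 1.51-fold lower (edgeR adjusted p = 0.025, 0.034 and 0.041). Irf9, the DNA-binding subunit of the type I complex, was higher, with 51.9, 61.2 and 53.3 CPM in S100a11 shRNA libraries and 36.6, 39.9 and 43.0 CPM in scrambled libraries, 1.39-fold (edgeR adjusted p = 0.045). All but Ciita lost the call when library 3, 2600, 28, 30 or 31 was left out, whereas all 5 kept it and Irf3 joined them without the library labelled 2, with a list median of -0.04.

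Of 19 sensors and adaptors 4 were lower and 1 higher (26.3% called, beside 14.1% of all tested genes, median -0.18). With library totals alone 11 were lower and 0 higher, where 3970 of all 19352 tested genes were lower. Mavs did not pass with that scaling. Aim2, the cytosolic DNA sensor of the inflammasome, was 1.97-fold lower (edgeR adjusted p = 0.0085). The endosomal receptors Tlr8, Tlr9 and Tlr7, which read RNA or DNA in macrophages, dendritic cells and B cells, were 2.18-fold, 1.91-fold and 1.78-fold lower (edgeR adjusted p = 0.0097, 0.036 and 0.046). Mavs, the mitochondrial adaptor of RIG-I and MDA5, was higher, with 117, 108 and 114 CPM in S100a11 shRNA libraries and 76.1, 73.5 and 88.9 CPM in scrambled libraries, 1.42-fold (log2 change 0.51 ± 0.13, SE, edgeR adjusted p = 0.035). Tlr8 passed in each fit that left out 1 library. The number that passed was 6 without the library labelled 2, 2 without library 3 or 31, 3 without library 2600 or 28, and 1 without library 30.

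Of 70 further type I targets 3 were higher and 3 lower (8.57% called, beside 14.1% of all tested genes, median -0.09). With library totals alone 3 were higher and 18 lower, beside 397 higher and 3970 lower of all 19352 tested genes. Apol9b and Apol9a, interferon-induced apolipoprotein L genes, were 3.03-fold and 3.09-fold higher (edgeR adjusted p = 0.0060 and 0.0079). Apol9b measured 99.1, 96.1 and 54.0 CPM in S100a11 shRNA libraries 2, 3 and 2600, and 27.3, 23.4 and 31.5 CPM in scrambled libraries 28, 30 and 31. Apol9b shares 52.3% of its windows with Apol9a, so how reads divide between both is uncertain. Ifi27, a relative of Ifi27l2a, was 1.98-fold higher (edgeR adjusted p = 0.0063), with 70.4, 91.4 and 85.3 CPM in S100a11 shRNA libraries and 36.7, 43.4 and 44.7 CPM in scrambled libraries. These 3 passed in each of the 6 fits that left out 1 library. Ifi211, Ly6e and Slfn8 were 1.64-fold, 2.07-fold and 1.79-fold lower (edgeR adjusted p = 0.039, 0.048 and 0.048), and Ifi211 shares 44.7% of its windows with Ifi205. All 3 of these lost the call without library 3, 28, 30 or 31. Without the library labelled 2, 11 genes of the list passed, and Slfn8 was not among them. Ly6e also lost the call without library 2600 and with RLE scaling.

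Of 26 further interferon-gamma GTPases and targets 3 were higher and 0 lower (11.5% called, beside 14.1% of all tested genes, median 0.23). With library totals alone 1 was higher (Gbp11) and 2 lower (Gbp9 and Icam1), beside 397 higher and 3970 lower of all 19352 tested genes. Gbp11 measured 32.1, 30.7 and 24.3 CPM in S100a11 shRNA libraries 2, 3 and 2600, and 10.02, 6.08 and 8.05 CPM in scrambled libraries 28, 30 and 31. It was 3.61-fold higher (log2 change 1.85 ± 0.21, SE, edgeR adjusted p = 0.0032), passed in each of the 6 fits that left out 1 library, and shares 19.2% of its windows with its relatives. The table's row named Gbp6, which covers a locus called Gm43302 in GENCODE M21 and shares 93.0% of its windows with Gbp6 itself, was 2.14-fold higher (edgeR adjusted p = 0.028). Gm4951, an immunity-related GTPase gene next to Iigp1, was 1.82-fold higher (edgeR adjusted p = 0.027). Without library 28 or 30 only Gbp11 passed in this list, and without the library labelled 2 the list had 4 genes higher, 2 lower (Ccl5 and Ifi47) and a median of -0.04. With all libraries, the library labelled 2 was the highest of its group for 16 of 26 genes and library 31 the highest of the scrambled libraries for 18 of 26, while libraries 2600 and 28 were each the highest of their group for 8.

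**Figure D4:**
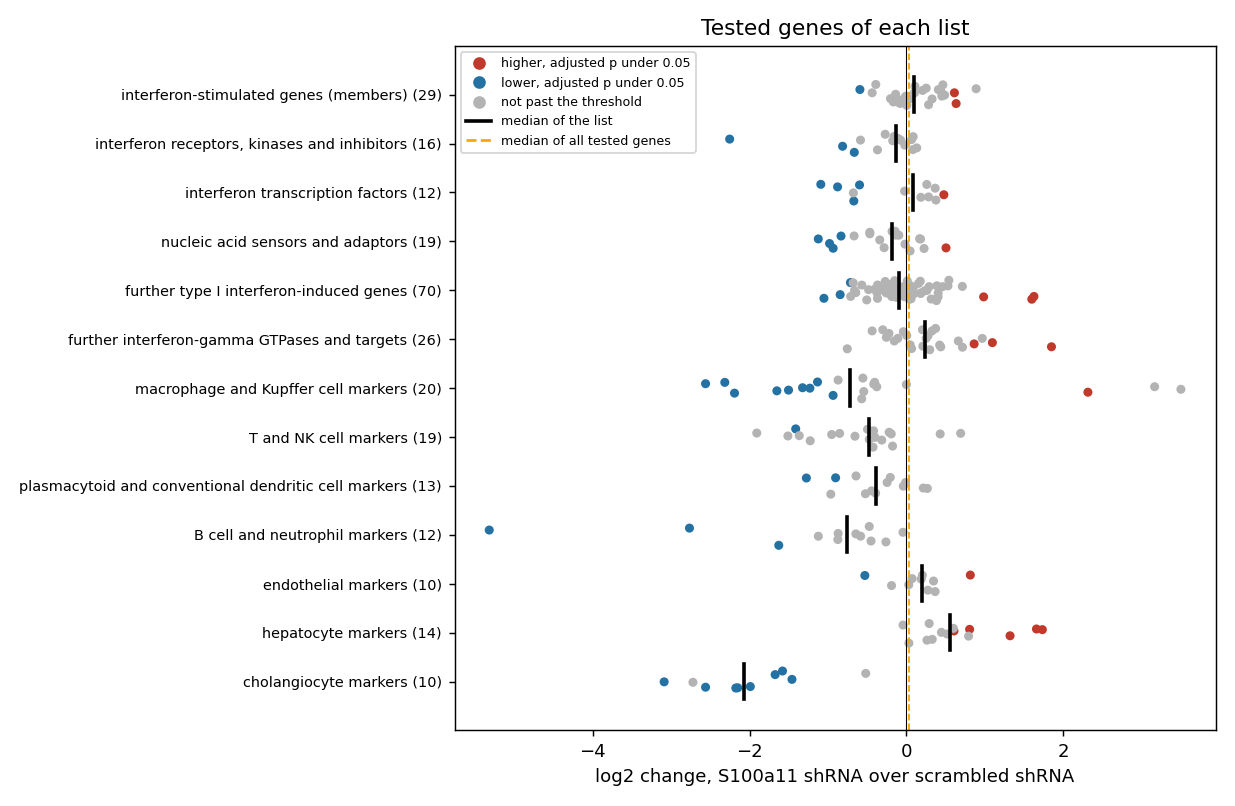
Fitted log2 changes of the tested genes of each interferon list and each cell marker list, S100a11 shRNA over scrambled shRNA, with black bars at the list medians and a dashed line at the median of all tested genes (0.04). The 29 members centre at 0.10, whereas the macrophage markers centre at -0.72 and the cholangiocyte markers at -2.07.

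Markers of several cell types, among them those that can make or answer interferon, were also compared, and the share called varied between lists. It was 80% for cholangiocyte, 50% for macrophage and Kupffer cell, 35.7% for hepatocyte, 25% for B cell and neutrophil and 20% for endothelial markers. For dendritic cell markers it was 15.4% and for T and NK cell markers 5.26%, against 14.1% of all tested genes. Of 20 macrophage and Kupffer cell markers 9 were lower and 1, Timd4, was higher (median -0.72), and their summed level was 449 to 911 CPM in S100a11 shRNA libraries and 1195 to 1665 CPM in scrambled libraries. Of 19 T and NK cell markers 1, Ncr1, was lower (median -0.47), with sums of 12.9 to 16.6 CPM in S100a11 shRNA libraries and 16.7 to 24.1 CPM in scrambled libraries. Of 13 dendritic cell markers Runx2 and Flt3 were lower (median -0.39, sums of 115 to 126 CPM in S100a11 shRNA libraries and 133 to 138 CPM in scrambled libraries), and of 12 B cell and neutrophil markers 3 were lower (median -0.76, 27.8 to 35.0 CPM in S100a11 shRNA libraries and 52.1 to 84.6 CPM in scrambled libraries). Of 14 hepatocyte markers 5 were higher and 0 lower (median 0.56, 58040 to 69980 CPM in S100a11 shRNA libraries and 41843 to 50725 CPM in scrambled libraries). Hepatocyte transcripts were abundant in every library, as the liver label states. Of 10 endothelial markers 1 was higher and 1 lower (median 0.20, 920 to 1329 CPM in S100a11 shRNA libraries and 954 to 1048 CPM in scrambled libraries). Of 10 cholangiocyte markers 8 were lower (median -2.07, 157 to 180 CPM in S100a11 shRNA libraries and 513 to 632 CPM in scrambled libraries). Spp1 is in both the macrophage and the cholangiocyte list and enters the sum of each, so these lists are not separate. The marker lists are given with TMM only, and library totals alone moved the median of all tested genes from 0.04 to -0.32. Whether the hepatocyte and endothelial medians stay above 0 with that scaling was not examined. No defining marker was at 0 in every library, and the part of these shifts in the values of Irf7, Gbp3, Mx1, the receptors, the factors and the sensors was not tested.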

How the data were processed

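RNA was measured in 6 mouse liver libraries, 3 per group. Per the labels' protocols, the authors removed ribosomal RNA from total RNA and made stranded libraries. The authors deposited 1 table of raw counts per Ensembl gene with a length column. The build was mm10 per the submitters' processing notes. Aligner, counter, strand setting and annotation release: not given in the sources used here. Groups were taken from the sample titles.

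Of 43346 genes, 19352 passed edgeR's filterByExpr at a minimum count of 10 and a minimum total of 15. Libraries were scaled by TMM and fitted with edgeR 4.0.16 (glmQLFit, glmQLFTest) and limma 3.58.1 in R 4.3.3, with Benjamini-Hochberg adjustment over all tested genes and 0.05 as the threshold. edgeR's common BCV (biological coefficient of variation) came to 0.223. Intervals are 95% intervals from the SE and the moderated degrees of freedom. DESeq2 1.42.0, limma voom, upper-quartile, RLE and total-count scaling, other filters and leaving out each library were alternatives. The fits were tested on simulated data. Each pair of libraries differed by more than counting noise (the smallest chi-square per gene was 48.4), which excludes identical columns. It does not show that the libraries came from separate animals. With 53517387 to 78091845 counts per library, counting error is small for the members, and the spread between libraries limits the precision.

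Members and gene lists were chosen with earlier results of these data known. Values in every library are printed for members past the threshold, for the 8 of highest mean RPKM and for the transcription factors. Exceptions, printed for how they spread or for their calls without the library labelled 2, are Oas2 and Mx2, which were chosen after their values were seen. In the other interferon lists every gene past the threshold is named, and the marker lists are given mainly as counts. Shared transcript windows are 50-base stretches found in transcripts of another gene in GENCODE M21. List symbols were matched through GENCODE M21, which held 42462 of the table's identifiers.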

Additional observations from a re-analysis of the deposited data

How the results depend on the processing

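The member median stayed near that of all genes under every scaling tried: scaled by library totals alone it was -0.25, with all genes at -0.32, so it lay 0.07 above them, against 0.06 with TMM. Over all tested genes 2728 passed, 4367 with library totals alone (397 higher and 3970 lower, so the split of higher and lower calls depends on the scaling), 4206 at an adjusted p under 0.1, and 724 to 4176 when each library was left out. Upper-quartile factors gave 816 higher and 1980 lower genes, and DESeq2 called 3753 in all. Of the members 3 passed; without the low-count filter only Irf7 did (1), and leaving out each library gave 0 to 5, with a median change of -0.03 to 0.21. Upper-quartile factors lost Gbp3 (edgeR adjusted p = 0.066).

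Library totals alone called 8 genes of the receptor, kinase and inhibitor list, 11 sensors and 21 further type I targets. Isg20 was counted in both the receptor list and the type I list. Without the filter 3 transcription factors passed. Further type I targets numbered 10 with upper-quartile factors, 11 with DESeq2 and 13 at an adjusted p under 0.1, where 5 interferon-gamma targets passed. Leaving out each library gave 0 to 4 genes of the receptor, kinase and inhibitor list. It gave 1 to 6 transcription factors, 1 to 6 sensors, 3 to 11 type I targets and 1 to 6 interferon-gamma targets. The cause was not tested.

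Signs turned only for members that had not passed. With library totals alone the log2 change was -0.12 for Stat2, -0.25 for Ifih1, -0.14 for Rsad2, -0.30 for Cmpk2, -0.34 for Ifi44, -0.027 for Rtp4, -0.22 for Gbp2 and -0.064 for Irgm1, against a shift of all genes to -0.32. Upper-quartile factors gave -0.054 for Cmpk2 and -0.088 for Ifi44, the filter at 1 CPM -0.024 and limma voom -0.017 for Ifi44, and no filter 0.00093 for Oasl1. Leaving out each library in turn gave ranges that crossed 0 for Irf1 (-0.23 to 0.018), Ifih1 (-0.029 to 0.23), Ifit2 (-0.44 to 0.13), Oas2 (-0.51 to 0.21), Oas3 (-0.30 to 0.049), Oasl1 (-0.14 to 0.14), Isg15 (-0.28 to 0.21), Cmpk2 (-0.33 to 0.20), Ifi44 (-0.35 to 0.19) and Gbp2 (-0.44 to 0.35). Over all members and settings, 347 values kept direction and side of the threshold, 31 turned sign, 20 lost a call and 8 gained one.

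No paired analysis was possible because the groups share no replicate numbers. With 3 libraries per group, 1 of which overlapped the scrambled libraries in S100a11, modest changes can be missed, and a member that did not pass is not shown to be unchanged.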

Other observations

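The libraries that stood highest for the members also stood highest for several genes tied to interferon-gamma and to cytotoxic lymphocytes; these genes were chosen after their values were seen, and no cause was tested. Cxcl10, a chemokine that interferons induce, measured 6.24, 3.00 and 3.84 CPM in S100a11 shRNA libraries 2, 3 and 2600, and 4.01, 2.60 and 4.74 CPM in scrambled libraries 28, 30 and 31. Irgm2, a regulator of the immunity-related GTPases, measured 83.2, 42.5 and 38.8 CPM in S100a11 shRNA libraries, and 28.1, 29.3 and 46.5 CPM in scrambled libraries. Gzma, the granule protease of T and NK cells, had 27, 4 and 6 counts in S100a11 shRNA libraries and 8, 6 and 18 counts in scrambled libraries, too few to be tested. Prf1, which encodes perforin, measured 0.744, 0.336 and 0.523 CPM in S100a11 shRNA libraries and 0.297, 0.291 and 0.577 CPM in scrambled libraries. In all 4 the library labelled 2 was the highest of its group and library 31 the highest of the scrambled libraries, as for most members. Over the 19 tested T and NK cell markers the library labelled 2 was highest of its group for 13, and library 31 highest of the scrambled libraries for 12. Ifng, with 2, 4 and 3 counts in S100a11 shRNA libraries 2, 3 and 2600, did not follow this order. Among 20 macrophage and Kupffer cell markers the library labelled 2 was likewise the highest of its group for 12 (60%, against 37.8% of all tested genes). Library 31 was the highest of the scrambled libraries for 13 (65%, against 41.1%). Library 2600 was the highest of the S100a11 shRNA group for 8 of these markers, among them the macrophage scavenger receptors Marco and Cd163. Marco measured 0.620, 0.879 and 20.6 CPM and Cd163 0.573, 6.41 and 27.8 CPM in S100a11 shRNA libraries 2, 3 and 2600. A scrambled library held at most 1.13 CPM of Marco and 1.40 CPM of Cd163.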
